A study of Rattus norvegicus with 4 samples.

Results

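The nuclear genes for subunits of the oxidative phosphorylation system were compared between mast cell preparations from diabetes-prone DRlyp/lyp and diabetes-resistant DR+/+ rats, complex by complex. Members were all probe sets whose only annotated gene symbol starts with Nduf (but not Ndufaf), Uqcr, Cox4 to Cox8 or Atp5, or is Sdha, Sdhb, Sdhc, Sdhd or Cycs. That rule found 89 of 31042 probe sets, for 80 of 14217 genes with a symbol of their own. They fell into 36 genes of complex I (Nduf), 4 of complex II (Sdh), 7 of complex III (Uqcr), 17 of complex IV (Cox) and 16 of complex V (Atp5). Another 9 probe sets carried a rule symbol together with a second symbol, often a near copy or pseudogene. They include those for Cycs, Uqcrb, Cox7a2, Ndufa10 and Ndufs5 and were not used, so no cytochrome c gene is reported.

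The cells were taken at day 65 from the pancreatic lymph nodes of BioBreeding females and are named AA4+ in the sample titles, after an antibody against rat mast cells. The DRlyp/lyp genotype combines the DR background with 2 copies of lyp, a loss of Gimap5 known for T cell lymphopenia and autoimmune diabetes, and DR+/+ rats have the normal gene. Each group was 1 RNA pool of 8 animals, split into 2 amplifications with an array each (array 1 and array 2), so there were 4 arrays in all. P-values therefore compare 2 pools against the spread between amplifications and say nothing of the spread between animals. The titles' names DP and DR were read as DRlyp/lyp and DR+/+.

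Oxidative phosphorylation takes place in the inner mitochondrial membrane. Complexes I and II pass electrons from NADH and from succinate to ubiquinone, complex III passes them on to cytochrome c and complex IV to oxygen. Complexes I, III and IV pump protons, and complex V, the ATP synthase, uses the returning protons to make ATP. Complex II is also an enzyme of the tricarboxylic acid cycle. The large proton-pumping core proteins of complexes I, III and IV and part of complex V are encoded in mitochondrial DNA, and the genes described here supply the remaining subunits.

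The promoters of such genes are known for sites of the factors NRF1, GABP (an ETS family factor) and YY1. RefSeq promoter windows of the GRCr8 assembly, from 250 bases before to 50 after a start, were at hand for 72 of the 80 members. Each was searched on both strands for GCGCANGCG (NRF1), CCGGAAG (ETS) and AANATGGCG (YY1). The NRF1 letters were in 23.6% of the members' windows and in 6.26% of the windows of all 27457 genes. The ETS letters were in 27.8% of the members' windows and 9.22% of all, and the YY1 letters in 25% and 3.33%. Matches of different motifs overlapped in 0 member windows, and 44 of the 72 held at least 1 match. Of the 26 genes with a window that were higher in DRlyp/lyp, 9 held the NRF1, 8 the ETS and 7 the YY1 letters. Of the 12 lower genes 1, 5 and 2 did, and of the 28 that did not pass the test 7 held each. The windows of 5 called members, chosen after their values were seen, follow, so that genes that were higher (Cox4i1, Uqcrq) and lower (Uqcrfs1, Sdha and, on the brighter of its 2 sets, Sdhd) can be set side by side; capitals mark the matches. Cox4i1 (chr19:65630133-65630432, plus strand) and Sdhd (chr8:59850592-59850891, minus strand) each hold 2 ETS matches and Uqcrq (chr10:38089929-38090228, minus strand) 1. Sdha (chr1:30764303-30764602, plus strand) holds 3 NRF1 matches and Uqcrfs1 (chr17:34186352-34186651, plus strand) none of the searched letters.
Cox4i1: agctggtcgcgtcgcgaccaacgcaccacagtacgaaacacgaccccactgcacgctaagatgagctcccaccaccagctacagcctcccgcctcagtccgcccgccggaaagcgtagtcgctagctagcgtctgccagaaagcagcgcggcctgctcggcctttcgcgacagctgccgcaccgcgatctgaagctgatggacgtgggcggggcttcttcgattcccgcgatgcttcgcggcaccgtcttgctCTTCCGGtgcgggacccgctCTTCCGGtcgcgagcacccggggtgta
Uqcrq: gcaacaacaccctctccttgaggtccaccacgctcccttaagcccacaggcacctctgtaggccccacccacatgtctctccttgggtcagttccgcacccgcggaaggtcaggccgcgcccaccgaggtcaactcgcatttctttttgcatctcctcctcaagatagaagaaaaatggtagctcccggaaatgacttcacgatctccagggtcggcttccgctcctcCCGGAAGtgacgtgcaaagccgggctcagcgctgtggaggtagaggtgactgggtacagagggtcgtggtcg
Uqcrfs1: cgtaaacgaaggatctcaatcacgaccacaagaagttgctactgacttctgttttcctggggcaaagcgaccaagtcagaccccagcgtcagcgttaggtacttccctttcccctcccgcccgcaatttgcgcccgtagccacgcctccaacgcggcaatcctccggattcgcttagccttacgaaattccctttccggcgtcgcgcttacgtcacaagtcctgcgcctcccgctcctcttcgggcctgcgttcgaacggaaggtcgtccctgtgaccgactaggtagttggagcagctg
Sdha: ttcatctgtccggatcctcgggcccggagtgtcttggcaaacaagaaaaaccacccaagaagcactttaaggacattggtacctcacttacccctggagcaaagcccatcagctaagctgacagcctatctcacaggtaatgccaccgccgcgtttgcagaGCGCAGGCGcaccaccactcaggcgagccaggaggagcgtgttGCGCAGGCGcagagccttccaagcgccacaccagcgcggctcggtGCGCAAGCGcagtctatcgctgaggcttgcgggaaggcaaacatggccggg
Sdhd: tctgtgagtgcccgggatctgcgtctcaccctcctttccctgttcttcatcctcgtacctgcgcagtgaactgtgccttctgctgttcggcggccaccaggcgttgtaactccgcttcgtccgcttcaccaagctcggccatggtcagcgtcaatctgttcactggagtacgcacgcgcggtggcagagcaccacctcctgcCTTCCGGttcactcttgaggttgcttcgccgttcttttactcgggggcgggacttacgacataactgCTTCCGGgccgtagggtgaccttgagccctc

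The trimmed mean signal (2% cut at each end) was 150.1 and 151.3 for DRlyp/lyp and 151.2 and 150.5 for DR+/+. The median signal was 30.3 and 28.4 for DRlyp/lyp and 27.8 and 26.5 for DR+/+, higher on both DRlyp/lyp arrays. Genes of other cells moved with the groups. Of 11 T cell markers 11 were higher in DRlyp/lyp (summed signal 9695.7 to 9705.5 in DRlyp/lyp, against 2125.1 to 2343.4 in DR+/+), as were 11 of 11 exocrine pancreas markers (9489.3 to 9866.5 in DRlyp/lyp, against 239.6 to 246.3 in DR+/+). Cell cycle genes were higher in 11 of 15 (8117.2 to 8197.5 in DRlyp/lyp, against 5471.3 to 5807.1 in DR+/+). Of 3 tested erythroid genes 2 were higher. The 5 with a probe set summed to 1601.7 to 1722.7 in DRlyp/lyp, against 183.5 to 201.8 in DR+/+. Most of that was Hbb, at 1595.4 and 1490.4 in DRlyp/lyp, against 125.8 and 144.1 in DR+/+. Macrophage markers were lower in 6 of 9 and higher in 2 (7510.9 to 7640.5 in DRlyp/lyp, against 11833.9 to 12500.5 in DR+/+), and B cell markers lower in 3 of 7 (10572.8 to 11273.7 in DRlyp/lyp, against 12888.8 to 14084.1 in DR+/+). Of 9 tested mast cell markers 3 were higher and 2 lower, beside 20.9% and 21.1% of all genes. The 11 with a probe set summed to 2951 to 3065.3 in DRlyp/lyp, against 1954.4 to 1995.6 in DR+/+. Most of that gap was Mcpt1, at 1664.8 and 1601.9 in DRlyp/lyp, against 668.9 and 655.4 in DR+/+. Tpsab1 and Tpsb2 were lower, and Cpa3, Cma1, Ms4a2 and Hdc did not pass. The mast cell receptor gene Kit lay below the filter on all arrays. No marker of these lists was at 0. The log2 difference between the 3′ and 5′ control sets of beta-actin was 4.43 and 4.55 in DRlyp/lyp, against 3.01 and 3.1 in DR+/+, and that of GAPDH 2.49 and 2.44 in DRlyp/lyp, against 1.74 and 1.57 in DR+/+. The part of cell make-up and of RNA length in the differences below was not tested. In such mixed samples fewer cells of a type and less RNA per cell cannot be told apart.

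Across the system, more member genes were higher than lower in DRlyp/lyp, and all but 4 of the called differences were smaller than 2-fold. Of the 80 genes, 72 passed the filter (signal above 28.3 on at least 2 of the 4 arrays), and 0 of these passed through the arrays of 1 group alone. At an adjusted p under 0.05 (limma), 30 were higher and 12 lower in DRlyp/lyp, and 30 did not pass. That is 41.7% higher and 16.7% lower, while over all 9349 genes tested 42% were called, 20.9% higher and 21.1% lower. Over all 16068 probe sets tested 39.2% were called, 19.3% higher and 19.9% lower. The arrays of the groups did not overlap for 77.8% of members, beside 71.9% of all genes. Of the members 37 were apart upwards and 19 downwards, beside 35.4% and 36.4% of all genes. Every called member was apart in this way, so a lack of overlap adds no support to a call. The median log2 difference of the members was 0.17, against 0.001 for all genes. Among the 1788 genes as bright as the middle range of the members, 30.8% were higher and 27.4% lower (median 0.02). Only 4 members were called with a difference of at least 2-fold (5.56%, beside 9.71% of all genes): Cox4i1, Cox5a and Uqcrq, which were higher, and Uqcrfs1, which was lower. With each array centred on its median, the median of all probe sets tested was -0.11, the share of all calls that were higher was 36.2% in place of 49.3%, and 22 members were higher and 13 lower; the median of complex V was then -0.01. Leaving out each array in turn kept the calls of 19 of the 30 higher and 9 of the 12 lower members.

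**Figure D1:**
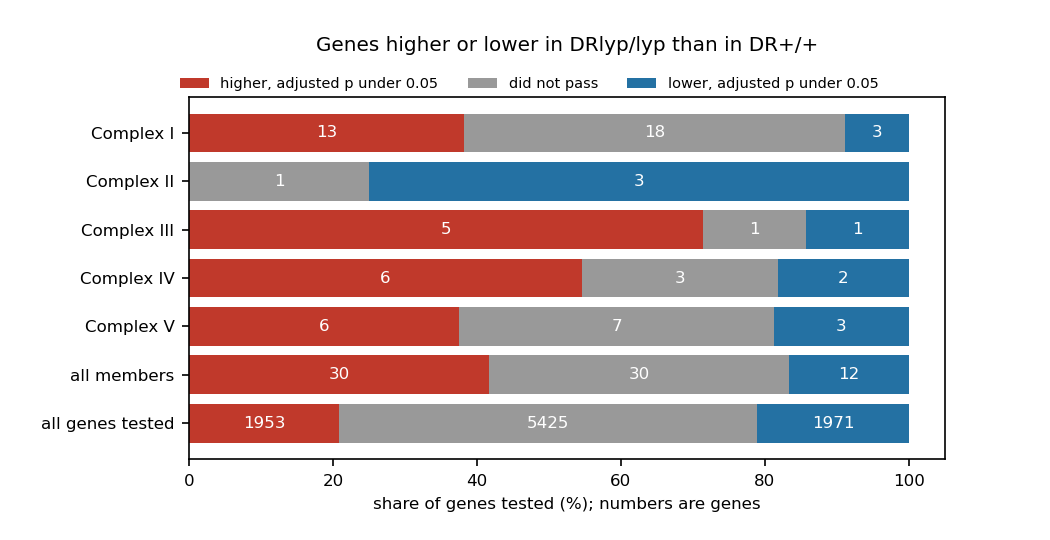
Share of genes tested (%) that were higher (red), did not pass (grey) or were lower (blue) in DRlyp/lyp relative to DR+/+, for each complex, all 72 members and all 9349 genes, with the number of genes in each segment. Higher genes outnumber lower ones in complexes I, III, IV and V, whereas complex II holds 3 lower genes and none that was higher.

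The 5 complexes did not share a direction. Complex II had 0 genes higher and 3 of 4 lower, with a median log2 difference of -0.57. Complex III had 5 of 7 higher and 1 lower (median 0.39), and complex IV 6 of 11 higher and 2 lower (0.22). Complex I had 13 of 34 higher and 3 lower (0.20), and complex V 6 of 16 higher and 3 lower (0.10). The shares of all genes were 20.9% higher and 21.1% lower. Among genes as bright as the middle range of the members they were 30.8% and 27.4%. In summed signal over the genes tested, complex III read 12690.8 and 12533.6 on the DRlyp/lyp arrays, against 8914.2 and 9894.3 on the DR+/+ arrays. Complex II read 3962 and 4103.8 on the DRlyp/lyp arrays, against 5508.2 and 5844.4 on the DR+/+ arrays. The sums of complexes I, IV and V were higher on the DRlyp/lyp arrays. For complex IV the median log2 signal was nevertheless lower, at 10.813 and 10.85 in DRlyp/lyp, against 10.914 and 10.984 in DR+/+. Its median difference of 0.22 is that of a single gene, Cox6c. The difference between complexes was not tested, and with 4 genes a complex II share rests on single genes. Without DR+/+ array 1 the median was 0.095 for complex I, 0.26 for complex III and 0.03 for complex V. Without DRlyp/lyp array 1 it was 0.38 for complex IV. Complex II lay between -0.63 and -0.51 whichever array was left out.

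**Figure D2:**
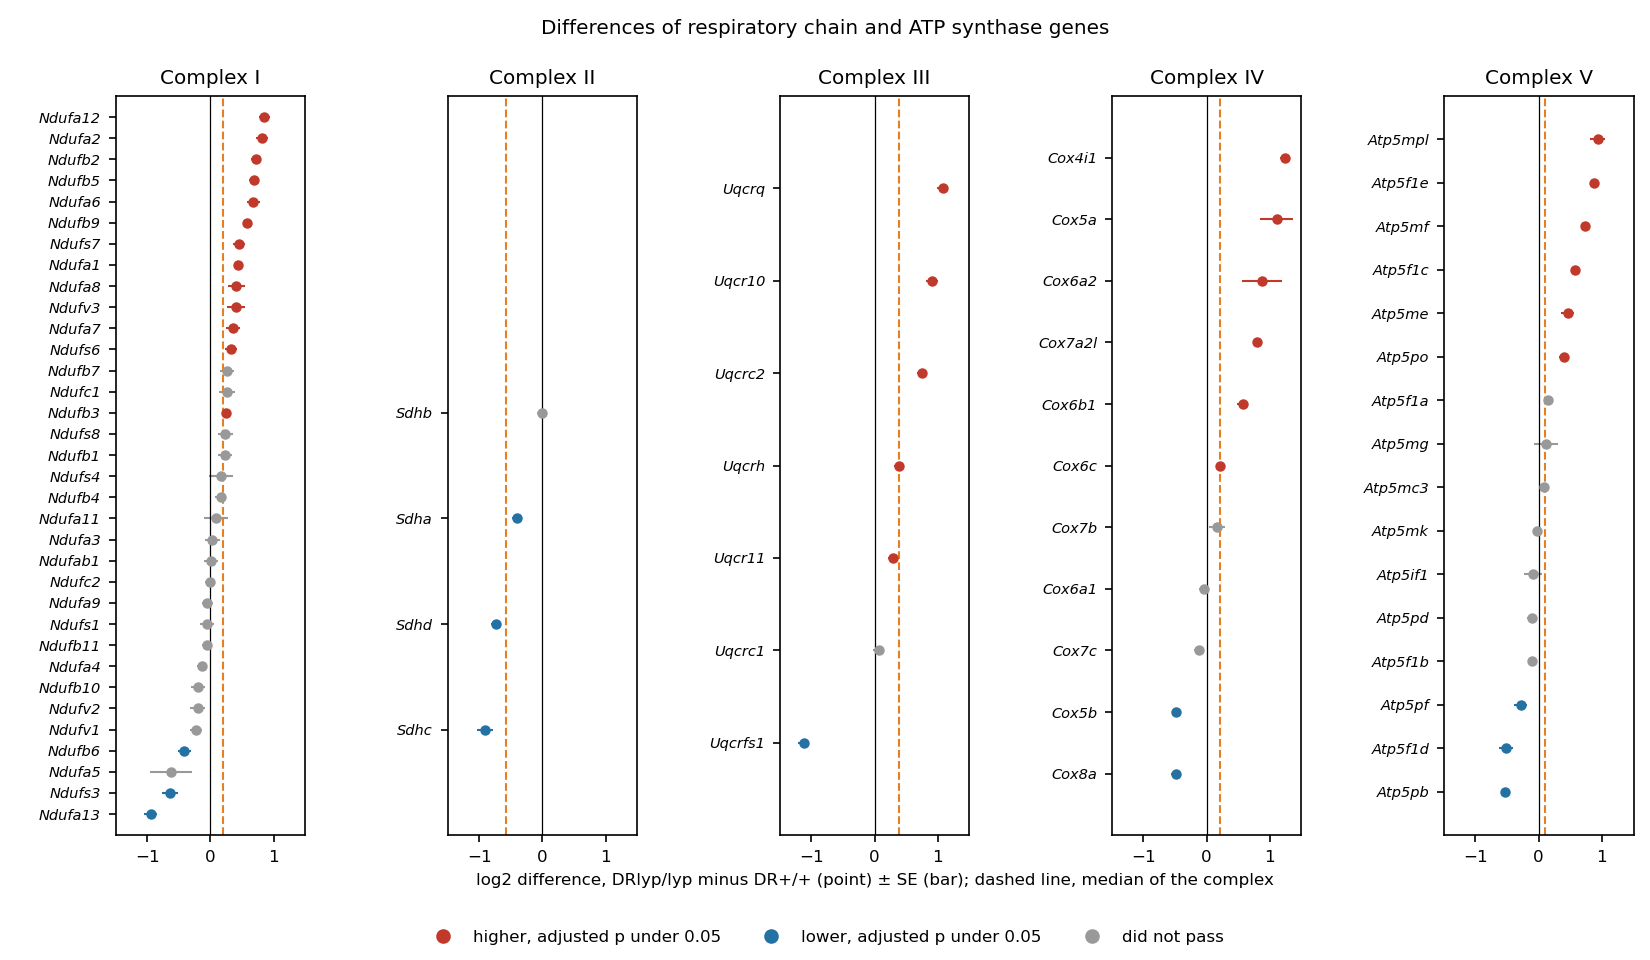
Log2 difference (DRlyp/lyp minus DR+/+, point) with its standard error (bar) for the 72 genes tested, by complex; red genes were higher and blue genes lower at an adjusted p under 0.05, grey genes did not pass, and the dashed line is the median of the complex. Values run from -1.12 for Uqcrfs1 to 1.24 for Cox4i1, and complexes I, III, IV and V each hold called genes on both sides of 0.

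Complex II, succinate dehydrogenase, links the tricarboxylic acid cycle to the chain and has no subunit encoded in mitochondria. Its membrane anchors Sdhc and Sdhd and its flavoprotein Sdha were lower in DRlyp/lyp, and its iron-sulfur protein Sdhb did not pass. Sdhc, which holds haem and ubiquinone together with Sdhd, read 471.9 and 424.9 on the DRlyp/lyp arrays, against 752.6 and 938.2 on the DR+/+ arrays (1.88-fold lower, log2 difference -0.91 ± 0.12 (SE), adjusted p = 0.000128). Sdhd read 1130.6 and 1256.3 on the DRlyp/lyp arrays, against 1934.3 and 2043.6 on the DR+/+ arrays on its brighter probe set (log2 difference -0.74 ± 0.08 (SE), adjusted p = 2.39e-05). On each of these sets the 2 DRlyp/lyp arrays were the lowest, with no overlap. The second Sdhd probe set went the other way, with 761.3 and 765.6 on the DRlyp/lyp arrays, against 610.9 and 664.2 on the DR+/+ arrays (log2 difference 0.26 ± 0.10 (SE), adjusted p = 0.0462). The direction for Sdhd therefore depends on which of its 2 sets is read, and with the second in place of the first the median of complex II was -0.21. Sdha, which oxidises succinate, read 1311.1 and 1395.9 on the DRlyp/lyp arrays, against 1755.1 and 1838 on the DR+/+ arrays (log2 difference -0.41 ± 0.07 (SE), adjusted p = 0.000973). Sdhb, which carries the electrons to ubiquinone, read 1048.4 and 1026.7 on the DRlyp/lyp arrays, against 1066.2 and 1024.6 on the DR+/+ arrays (-0.01, adjusted p = 0.931), so its groups overlapped. The 3 calls were kept with each array left out. They were lost without the filter on dim sets, at adjusted p of 0.0681 for Sdha, 0.095 for Sdhc and 0.0542 for Sdhd, and that of Sdha also without the intensity trend (adjusted p = 0.0698).

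Of the 4 assembly factors of complex II, 0 were higher and 2 lower, beside 20.9% and 21.1% of all genes. Sdhaf2, which helps attach flavin to Sdha, read 374 and 375.3 in DRlyp/lyp, against 761.2 and 619 in DR+/+ (log2 difference -0.87 ± 0.12 (SE), adjusted p = 0.000166). Sdhaf1, which helps load the iron-sulfur clusters of Sdhb, read 1232.2 and 1227.8 in DRlyp/lyp, against 1446.5 and 1432.7 in DR+/+ (-0.23, adjusted p = 0.0276). The Sdhaf1 call was lost whichever array was left out, at adjusted p of 0.0516 to 0.142, while that of Sdhaf2 was kept; without the filter Sdhaf2 did not pass (adjusted p = 0.0813).

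Complex III, the cytochrome bc1 complex, had the widest range of differences between its own subunits, which rests on 1 gene, Uqcrfs1. Its quartiles were 0.181 and 0.825, while those of complex IV lay further apart (-0.085 and 0.838). The small subunits of complex III and 1 of its large core proteins were higher in DRlyp/lyp, and its Rieske iron-sulfur protein was lower. Uqcrq, a small subunit next to cytochrome b, read 1469.6 and 1512.1 on the DRlyp/lyp arrays, against 673 and 741.6 on the DR+/+ arrays (2.11-fold higher, log2 difference 1.08 ± 0.09 (SE), adjusted p = 2.66e-06). Uqcr10, another small subunit, read 1915.6 and 1890.3 on the DRlyp/lyp arrays, against 919.4 and 1124.5 on the DR+/+ arrays (log2 difference 0.90 ± 0.09 (SE), adjusted p = 2.08e-05). Uqcrc2, a core protein that faces the matrix, read 2360.5 and 2465.8 on the DRlyp/lyp arrays, against 1468.9 and 1408.1 on the DR+/+ arrays (log2 difference 0.75 ± 0.07 (SE), adjusted p = 7.98e-06). For all 3, both DRlyp/lyp arrays lay above both DR+/+ arrays. A dimmer Uqcrc2 set read 56.7 and 49.5 in DRlyp/lyp, against 62.7 and 52.6 in DR+/+, did not pass (-0.12, adjusted p = 0.775) and overlapped, and with the mean of its sets Uqcrc2 was not called (0.32, adjusted p = 0.0636). Uqcrfs1, the Rieske protein, which takes electrons from ubiquinol, was the largest lower difference of the system, with 548.7 and 535 on the DRlyp/lyp arrays, against 1172.1 and 1177.1 on the DR+/+ arrays (2.17-fold lower, log2 difference -1.12 ± 0.09 (SE), adjusted p = 2.51e-06). Its DR+/+ values were about alike on both arrays and far above the DRlyp/lyp values.

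Uqcrh, the hinge protein that helps cytochrome c1 meet cytochrome c, read 4217.6 and 3988 on the DRlyp/lyp arrays, against 2867.6 and 3432.1 on the DR+/+ arrays (0.39, adjusted p = 0.00201). Uqcr11 read 1053.8 and 1121.3 in DRlyp/lyp, against 839.4 and 932.4 in DR+/+ (0.30, adjusted p = 0.0196), which did not pass without DRlyp/lyp array 1 (0.34, adjusted p = 0.0805), DRlyp/lyp array 2 (0.25, adjusted p = 0.178) or DR+/+ array 1 (0.22, adjusted p = 0.0897). The core protein Uqcrc1 read 1125 and 1021.1 in DRlyp/lyp, against 973.8 and 1078.5 in DR+/+ and its groups overlapped (0.07, adjusted p = 0.603). Cytochrome c1 itself, Cyc1, which the symbol rule leaves out, read 1667.2 and 1690.6 in DRlyp/lyp, against 1183.5 and 1381.2 in DR+/+ (0.39, adjusted p = 0.00317) and was higher, though not with median centring (0.28, adjusted p = 0.0559). Without the filter the calls of Uqcr10 (adjusted p = 0.0762), Uqcrh (0.218) and Uqcr11 (0.171) were lost, and those of Uqcrfs1, Uqcrq and Uqcrc2 were kept. Without the intensity trend Uqcrh (adjusted p = 0.119) and Uqcr11 (0.151) lost theirs, and Uqcr11 did so with median centring too (0.231).

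Of 5 complex III assembly factors tested, 3 were higher and 0 lower, beside 20.9% and 21.1% of all genes. Uqcc3 read 362.7 and 408.9 in DRlyp/lyp, against 216.4 and 232.7 in DR+/+ (0.78, adjusted p = 0.000784) and Bcs1l, the ATPase that inserts the Rieske protein, 105.4 and 112.9 in DRlyp/lyp, against 65.5 and 68.5 in DR+/+ (0.70, adjusted p = 0.0252). Bcs1l was thus higher while its client Uqcrfs1 was lower; without DRlyp/lyp array 1 (0.75, adjusted p = 0.119), DRlyp/lyp array 2 (0.65, adjusted p = 0.171) or DR+/+ array 1 (0.67, adjusted p = 0.0522) its call was lost, as it was with median centring (0.59, adjusted p = 0.0576). Uqcc2 (0.50, adjusted p = 0.00953) lost its call without DRlyp/lyp array 1 (0.40, adjusted p = 0.15). Without the filter on dim sets none of the 3 passed (adjusted p = 0.0599 for Uqcc3, 0.0616 for Bcs1l and 0.16 for Uqcc2), and without the intensity trend Uqcc2 did not (0.0743).

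**Figure D3:**
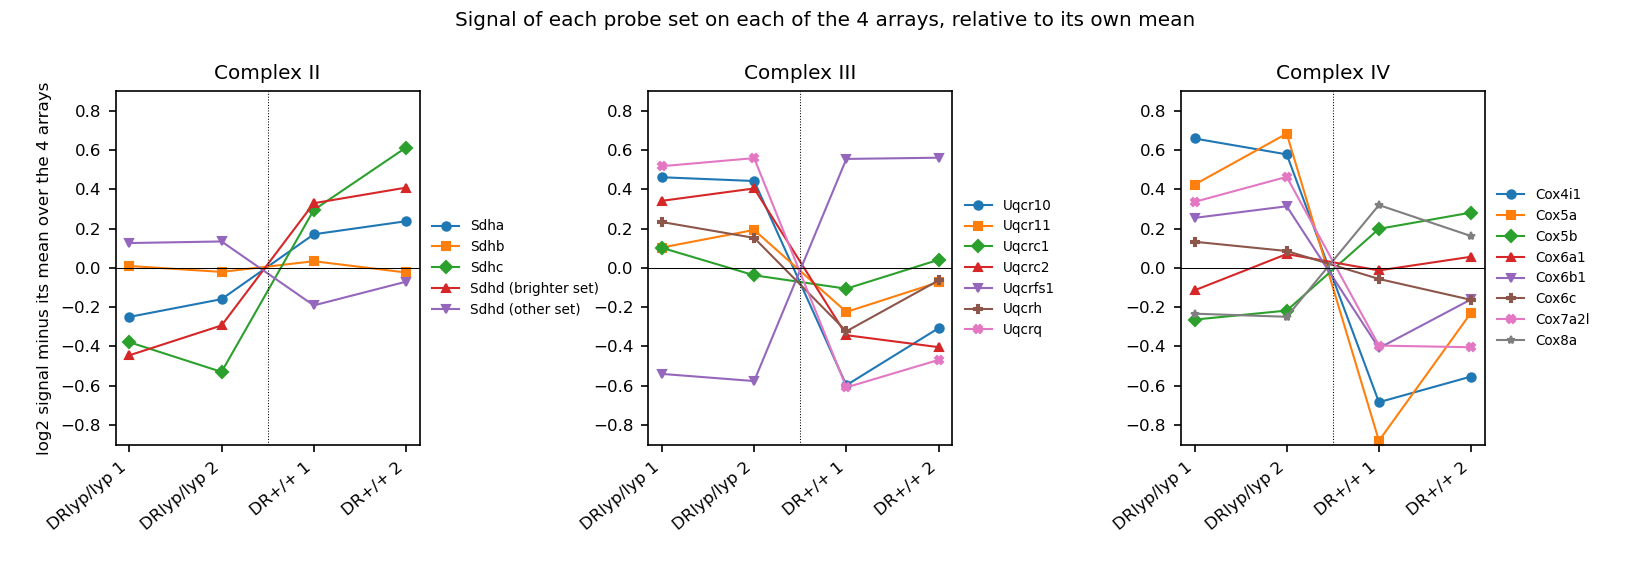
Log2 signal of each probe set on each array, relative to its own mean over the 4 arrays, for complex II, complex III and 8 genes of complex IV, with DRlyp/lyp arrays left of the dotted line and DR+/+ arrays right of it. The 2 probe sets of Sdhd run in opposite directions, Uqcrfs1 runs against Uqcrq, Uqcr10 and the brighter Uqcrc2 set, and Cox5b and Cox8a run against Cox4i1.

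Complex IV, cytochrome c oxidase, held the largest higher difference of the system. Cox4i1, the ubiquitous form of subunit 4, read 3081.2 and 2913.2 on the DRlyp/lyp arrays, against 1214.5 and 1329.7 on the DR+/+ arrays (2.36-fold higher, log2 difference 1.24 ± 0.07 (SE), adjusted p = 2.36e-07). Both DRlyp/lyp arrays lay far above both DR+/+ arrays. Cox7a2l, a relative of subunit 7a that joins complexes III and IV into supercomplexes, read 5440.7 and 5944 on the DRlyp/lyp arrays, against 3276 and 3256.9 on the DR+/+ arrays (log2 difference 0.80 ± 0.06 (SE), adjusted p = 1.06e-06). Cox6b1, which faces the intermembrane space, read 2805.8 and 2923.5 on the DRlyp/lyp arrays, against 1771.9 and 2104.9 on the DR+/+ arrays (log2 difference 0.57 ± 0.08 (SE), adjusted p = 0.000199). These 3 genes showed no overlap, like every called member. Cox5a, a matrix-side subunit, was dim at 116.1 and 139 in DRlyp/lyp, against 47 and 73.9 in DR+/+ (1.11, adjusted p = 0.00573), and without DRlyp/lyp array 2 its call was lost (0.98, adjusted p = 0.0915). Cox6c read 3172.5 and 3070.3 in DRlyp/lyp, against 2781.7 and 2583.8 in DR+/+ (0.22, adjusted p = 0.014); its call was lost without DRlyp/lyp array 1 (adjusted p = 0.125), DRlyp/lyp array 2 (0.0618) or DR+/+ array 2 (0.0875).

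The zinc-binding subunit Cox5b and the small membrane subunit Cox8a were lower. Cox5b read 1510 and 1558.9 on the DRlyp/lyp arrays, against 2080.3 and 2203.6 on the DR+/+ arrays (log2 difference -0.48 ± 0.07 (SE), adjusted p = 0.000214). Cox8a read 1466.2 and 1450.3 on the DRlyp/lyp arrays, against 2151.5 and 1928.3 on the DR+/+ arrays (log2 difference -0.48 ± 0.07 (SE), adjusted p = 0.00037). Their differences were of the same size, and like every called member they had no overlap between the groups. Cox6a1 (1798.5 and 2044.3 in DRlyp/lyp, against 1929.4 and 2025.2 in DR+/+) and Cox7b (1130.4 and 1521.2 in DRlyp/lyp, against 1076.1 and 1268 in DR+/+) did not pass and overlapped, and Cox7c (1886.9 and 1845.2 in DRlyp/lyp, against 2006 and 2066.8 in DR+/+) did not pass (-0.13, adjusted p = 0.147). Without the filter on dim sets the calls of Cox5a, Cox5b, Cox6a2, Cox6b1, Cox6c and Cox8a were lost (adjusted p of 0.0509 to 0.209), and those of Cox4i1 and Cox7a2l were kept. Without the intensity trend Cox6b1 (adjusted p = 0.0526), Cox6c (0.229) and Cox8a (0.056) lost theirs, and Cox6c did so with median centring too (0.347).

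Complex IV has subunit forms that are restricted to muscle, lung or testis, and their signals were low. Cox4i2, the lung form of subunit 4, read 1.1 and 8.5 in DRlyp/lyp, against 3.1 and 8.8 in DR+/+. The muscle form Cox7a1 read 11.7 and 5.1 in DRlyp/lyp, against 4.5 and 1.1 in DR+/+ and the muscle form Cox8b 1.2 and 4.8 in DRlyp/lyp, against 11.7 and 10.7 in DR+/+. The testis form Cox6b2 read 3.4 and 24.8 in DRlyp/lyp, against 22.4 and 9.4 in DR+/+, Cox7b2 12.9 and 5.3 in DRlyp/lyp, against 7 and 3.6 in DR+/+ and the pseudogene Cox6c-ps1 34 and 14.5 in DRlyp/lyp, against 17.1 and 19.7 in DR+/+. All 6 failed the filter and were not tested. Only Cox6a2, the heart and muscle form of subunit 6a, passed it, at 51.4 and 66.3 in DRlyp/lyp, against 35 and 28.9 in DR+/+, and its difference lay just inside the threshold (0.88, adjusted p = 0.049). That call was lost whichever array was left out, at adjusted p of 0.0501 to 0.305, and with quantile normalization (adjusted p = 0.0619), median centring (0.0817) or the lower floor (0.0523).

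Among 18 assembly factors of complex IV tested, 3 were higher and 3 lower, near the shares over all genes of 20.9% and 21.1%. With quantile normalization 6 were higher and 3 lower. Cox10, which makes the haem of the enzyme, was higher at 361.8 and 358 in DRlyp/lyp, against 179.4 and 216.1 in DR+/+ (0.87, adjusted p = 0.000592), and Cox14, which helps translation and early assembly of the mitochondrial subunit Cox1, was lower at 531.8 and 523.8 in DRlyp/lyp, against 735.5 and 764.1 in DR+/+ (-0.51, adjusted p = 0.00144). These calls were kept with each array left out, and that of Cox10 was lost without the filter (adjusted p = 0.0722). Cox19 (0.84) lost its call without DRlyp/lyp array 2 (adjusted p = 0.0545), Cmc2 (0.96) without DRlyp/lyp array 1 (adjusted p = 0.305) or DR+/+ array 2 (0.122), Cox16 (-0.41) without DRlyp/lyp array 1 (adjusted p = 0.298) or DR+/+ array 1 (0.208), and Oxa1l (-0.33) without DRlyp/lyp array 2 (adjusted p = 0.259) or DR+/+ array 1 (0.0882).

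Complex I, NADH dehydrogenase, is the largest of the complexes, with a conserved catalytic core and many accessory subunits. Of the 6 core subunits tested, 1 was higher, 1 lower and 4 did not pass, with a median of -0.13. Over all genes 20.9% were higher and 21.1% lower. Of 28 accessory subunits 12 were higher, 2 lower and 14 did not pass (median 0.24). This split was drawn after the values were seen, and the difference between core and accessory genes was not tested. The core subunit Ndufs7, which holds the last iron-sulfur cluster before ubiquinone, read 856.3 and 890.4 in DRlyp/lyp, against 609.1 and 671.5 in DR+/+ (0.45, adjusted p = 0.00282), which did not pass without DRlyp/lyp array 2 (0.42, adjusted p = 0.0526). Ndufs3, its neighbour in the arm that reaches into the matrix, was lower at 303.7 and 351.6 on the DRlyp/lyp arrays, against 523.2 and 495.1 on the DR+/+ arrays (log2 difference -0.64 ± 0.12 (SE), adjusted p = 0.00148). The NADH-binding Ndufv1 read 664.7 and 732.7 in DRlyp/lyp, against 804.7 and 834.1 in DR+/+ (-0.23, adjusted p = 0.0707), and its partner Ndufv2 747.7 and 624.8 in DRlyp/lyp, against 877.8 and 703.8 in DR+/+ (-0.20, adjusted p = 0.219). Ndufv1 was nearest to the threshold from outside and passed it with median centring (-0.34, adjusted p = 0.0354). Ndufs1 (-0.05, adjusted p = 0.764) and Ndufs8 (0.24, adjusted p = 0.14) did not pass either; Ndufs8 did without DR+/+ array 2 (0.37, adjusted p = 0.0336).

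Of the 12 accessory subunits that were higher, 6 belong to the Ndufa and 4 to the Ndufb series, and the others are Ndufs6 and Ndufv3. Ndufa12, which lies on the matrix arm, read 1294.5 and 1299.3 on the DRlyp/lyp arrays, against 681 and 761.5 on the DR+/+ arrays (log2 difference 0.85 ± 0.09 (SE), adjusted p = 2.09e-05). Ndufa2 read 1134.8 and 1074.7 on the DRlyp/lyp arrays, against 583.4 and 670.1 on the DR+/+ arrays (log2 difference 0.82 ± 0.10 (SE), adjusted p = 5.50e-05), and Ndufa6, which belongs to the LYR family, 712.7 and 719.5 in DRlyp/lyp, against 438.6 and 455.4 in DR+/+ (0.68, adjusted p = 0.000257). In all 3 the DRlyp/lyp arrays agreed closely and stood above both DR+/+ arrays. Ndufb2, of the membrane arm, read 1382.7 and 1407.4 on the DRlyp/lyp arrays, against 847.8 and 840.8 on the DR+/+ arrays (log2 difference 0.72 ± 0.08 (SE), adjusted p = 2.93e-05). Ndufb5 read 2113.4 and 2080.4 in DRlyp/lyp, against 1303.8 and 1305.8 in DR+/+ (0.68, adjusted p = 1.51e-05) and the LYR protein Ndufb9 1644.7 and 1669.8 in DRlyp/lyp, against 1146.6 and 1066.1 in DR+/+ (0.58, adjusted p = 0.00011). These membrane arm genes had no overlap between the groups, like every called member. Ndufa13, also known as Grim19, a cell death regulator besides its place in complex I, was lower at 481.8 and 571.8 on the DRlyp/lyp arrays, against 965.2 and 1059.6 on the DR+/+ arrays (1.93-fold lower, log2 difference -0.95 ± 0.11 (SE), adjusted p = 4.24e-05). It was the largest lower difference of complex I.

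Ndufa1 (0.43) was higher and kept its call with each array left out, but not without the intensity trend (adjusted p = 0.0595). Of the called complex I genes, 7 lost their call with at least 1 array left out, at adjusted p of 0.0526 to 0.2. These are Ndufs7, given above, Ndufa7, Ndufa8, Ndufb3, Ndufs6 and Ndufv3, which were higher (0.25 to 0.45), and Ndufb6, which was lower (-0.42). Ndufa7 and Ndufv3 were not called without DRlyp/lyp array 1 (adjusted p = 0.133 and 0.197), DRlyp/lyp array 2 (0.191 and 0.2) or DR+/+ array 1 (0.152 and 0.161). Ndufa8 was not called without the same arrays (0.168, 0.164 and 0.178), and Ndufs6 without DRlyp/lyp array 1 (adjusted p = 0.108), DRlyp/lyp array 2 (0.0848) or DR+/+ array 2 (0.0882). Ndufb3 lost its call without DRlyp/lyp array 1 (adjusted p = 0.131) or DR+/+ array 2 (0.062), and Ndufb6 without DRlyp/lyp array 1 (0.107). For Ndufv3 a second, dimmer probe set read 56.3 and 57.1 in DRlyp/lyp, against 51.2 and 63.4 in DR+/+ and overlapped (-0.01, adjusted p = 0.987), beside 333.8 and 335.8 in DRlyp/lyp, against 229.2 and 281.3 in DR+/+ on the brighter one. Ndufs6, which holds zinc, read 1864.4 and 1836.4 in DRlyp/lyp, against 1630.3 and 1340.2 in DR+/+, and Ndufb3 2778.6 and 2598.2 in DRlyp/lyp, against 2329.5 and 2201.2 in DR+/+. Without the filter 11 of the 16 complex I calls were lost, at adjusted p of 0.0599 to 0.354, those of Ndufa13, Ndufa2 and Ndufs3 among them. Ndufa6, Ndufa12, Ndufb2, Ndufb5 and Ndufb9 kept theirs. Without the intensity trend 8 calls were lost (adjusted p of 0.0595 to 0.19). With median centring those of Ndufa7, Ndufa8, Ndufb3, Ndufs6 and Ndufv3 were lost (0.114 to 0.242).

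The 18 complex I genes that did not pass had differences from -0.62 to 0.26. Among them Ndufa4, which is now counted with complex IV as well, read 1086.6 and 1045 in DRlyp/lyp, against 1139.4 and 1206.4 in DR+/+ (-0.14, adjusted p = 0.195), and Ndufab1, the mitochondrial acyl carrier protein, 514.3 and 612.2 in DRlyp/lyp, against 551.6 and 564.9 in DR+/+ (0.01, adjusted p = 0.966). Ndufa5 was dim and variable at 32.1 and 58.3 in DRlyp/lyp, against 72.4 and 61 in DR+/+ (-0.62, adjusted p = 0.162). Of these 18, 9 had arrays that did not overlap between the groups, beside 71.9% of all genes. Without DR+/+ array 2 the differences of Ndufb1 and Ndufb7 were 0.38 and 0.35. Ndufb8 (8.4 and 9.3 in DRlyp/lyp, against 18.8 and 16.8 in DR+/+) and the hypoxia-induced relative Ndufa4l2 (16.3 and 16.9 in DRlyp/lyp, against 13.5 and 8.4 in DR+/+) failed the filter on all 4 arrays. Of 12 complex I assembly factors, 0 were higher and 1 lower (median -0.11), beside 20.9% and 21.1% of all genes. The lower gene was Ndufaf4, at 439.4 and 506.8 in DRlyp/lyp, against 749.9 and 868.7 in DR+/+ (-0.77, adjusted p = 0.00026), a call kept with each array left out but not without the filter (adjusted p = 0.0936).

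Complex V, the ATP synthase, had genes in both directions in its F1 head and its peripheral stalk. In the catalytic F1 head, the rotor subunits gamma and epsilon were higher, and delta, the third rotor subunit, was lower. Atp5f1e, epsilon, read 4392.4 and 4673.3 on the DRlyp/lyp arrays, against 2461.6 and 2480.3 on the DR+/+ arrays (log2 difference 0.88 ± 0.06 (SE), adjusted p = 5.94e-07). Atp5f1c, gamma, read 3682.1 and 3734.6 on the DRlyp/lyp arrays, against 2561.5 and 2403.5 on the DR+/+ arrays (log2 difference 0.58 ± 0.06 (SE), adjusted p = 1.79e-05). Atp5f1d, delta, read 790.8 and 903.1 on the DRlyp/lyp arrays, against 1085.4 and 1341.5 on the DR+/+ arrays (log2 difference -0.51 ± 0.11 (SE), adjusted p = 0.00304), and its call was lost without DRlyp/lyp array 1 (-0.42, adjusted p = 0.063). The alpha and beta subunits, which form the catalytic ring, did not pass. Atp5f1a read 2199.3 and 2078.5 in DRlyp/lyp, against 1934.4 and 1904.6 in DR+/+ (0.16, adjusted p = 0.0802) and Atp5f1b 3156.2 and 3048.5 in DRlyp/lyp, against 3405.3 and 3239.4 in DR+/+ (-0.10, adjusted p = 0.196), with no overlap between the groups in either gene and differences of opposite sign.

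The peripheral stalk, which holds the head still against the rotor, had 1 of 4 subunits higher and 2 lower. Over all genes 20.9% were higher and 21.1% lower. Atp5pb, subunit b, was lower at 2000.7 and 2014.9 on the DRlyp/lyp arrays, against 2855 and 2951.2 on the DR+/+ arrays (log2 difference -0.53 ± 0.06 (SE), adjusted p = 4.46e-05). Atp5pf, coupling factor 6, read 687.8 and 783.2 in DRlyp/lyp, against 873.6 and 917 in DR+/+ (-0.29, adjusted p = 0.0333), a call lost whichever array was left out, at adjusted p of 0.0533 to 0.299. Atp5po, which seats the stalk on the head, was higher at 1581.5 and 1467.8 in DRlyp/lyp, against 1129.7 and 1182 in DR+/+ (0.40, adjusted p = 0.00171), and Atp5pd (1145.7 and 1219.2 in DRlyp/lyp, against 1290.1 and 1242.2 in DR+/+) did not pass. In the membrane part and its small accessory subunits 3 of 6 were higher and 0 lower. Atp5mpl, a short membrane protein bound to the synthase, read 697.6 and 725.8 on the DRlyp/lyp arrays, against 336.6 and 411.5 on the DR+/+ arrays (1.91-fold higher, log2 difference 0.94 ± 0.12 (SE), adjusted p = 9.81e-05). Atp5mf, subunit f, read 3217.1 and 3612 in DRlyp/lyp, against 1987.4 and 2114.2 in DR+/+ (0.73, adjusted p = 1.15e-05). Atp5me, subunit e, which helps synthases pair into dimers, read 704.9 and 793 in DRlyp/lyp, against 525.5 and 562.9 in DR+/+ (0.46, adjusted p = 0.00414), which did not pass without DRlyp/lyp array 2 (0.37, adjusted p = 0.0885). Each of the 3 had no overlap, like every called member.

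Atp5mc3, which encodes the c subunit of the membrane rotor, read 3688.9 and 3803.1 in DRlyp/lyp, against 3598.7 and 3450.8 in DR+/+ (0.09, adjusted p = 0.225). The probe sets of the other c subunit genes, Atp5mc1 and Atp5mc2, carry several symbols and were not used. Atp5mk (-0.02, adjusted p = 0.861) and Atp5mg (0.12, adjusted p = 0.648) overlapped between the groups. Atp5if1, the inhibitor that keeps the synthase from running backwards, read 338.2 and 324.8 in DRlyp/lyp, against 305.9 and 405.2 in DR+/+ on its brightest set (-0.09, adjusted p = 0.674), and its other 2 sets failed the filter. Without the filter the calls of Atp5f1d, Atp5me, Atp5mf, Atp5mpl, Atp5pf and Atp5po were lost (adjusted p of 0.0609 to 0.211), and those of Atp5f1c, Atp5f1e and Atp5pb were kept. Without the intensity trend Atp5f1d (adjusted p = 0.0885), Atp5me (0.0682), Atp5pf (0.172) and Atp5po (0.0752) lost theirs. Atpaf1, a chaperone that binds the beta subunit during assembly, was higher at 487.3 and 451 in DRlyp/lyp, against 250.4 and 263.7 in DR+/+ (0.87, adjusted p = 0.000203), but not with the mean of its sets (0.46, adjusted p = 0.0606).

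Of the genes that feed the chain, more were lower than higher in DRlyp/lyp. Of 14 genes of the tricarboxylic acid cycle and pyruvate dehydrogenase, 2 were higher and 7 lower (median -0.32). Over all genes 20.9% were higher and 21.1% lower. Suclg2, a succinyl-CoA ligase subunit one step ahead of complex II in the cycle, read 315.8 and 341.5 on the DRlyp/lyp arrays, against 606.9 and 697.3 on the DR+/+ arrays (-0.99, adjusted p = 5.71e-05). Suclg1, its shared partner subunit, read 446.6 and 436.8 in DRlyp/lyp, against 713.3 and 709.7 in DR+/+ (-0.69, adjusted p = 0.000236), and Dld, the dihydrolipoamide dehydrogenase of the 2-oxoacid complexes, 425.9 and 340.5 in DRlyp/lyp, against 699.9 and 593.6 in DR+/+ (-0.76, adjusted p = 0.000869). The DRlyp/lyp arrays were below the DR+/+ arrays in all 3, and their calls were kept with each array left out. The higher genes were Idh3a (0.77, adjusted p = 0.0321) and Mdh2 (0.25, adjusted p = 0.0353). Each lost its call without DRlyp/lyp array 1 (adjusted p = 0.125 and 0.218), DRlyp/lyp array 2 (0.205 and 0.136) or DR+/+ array 1 (0.128 and 0.0941), and with median centring (0.0609 and 0.364). The count of lower genes was 5 to 7 with each array left out, and 1 without the filter.

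Of 8 carriers and porins tested, 2 were higher and 5 lower, beside 20.9% and 21.1% of all genes. The porin Vdac2 was lower at 1809.4 and 1784 in DRlyp/lyp, against 2249.4 and 2315.6 in DR+/+ (-0.34, adjusted p = 0.00126), though not without the intensity trend (adjusted p = 0.0895). Without the filter 0 carriers and porins were higher and 1 lower. The adenine nucleotide carriers Slc25a4 (0.38, adjusted p = 0.00738) and Slc25a5 (0.21, adjusted p = 0.00384) were higher, though not with median centring (0.27, adjusted p = 0.0869, and 0.09, adjusted p = 0.36). Neither passed without the intensity trend (adjusted p = 0.0891 and 0.231), and Slc25a5 did not with quantile normalization (0.08, adjusted p = 0.169). Slc25a4 also lost its call without DRlyp/lyp array 1 (adjusted p = 0.103) or DRlyp/lyp array 2 (0.052). The calls of Vdac1 and the uncoupling protein Ucp2, both lower, were lost without DRlyp/lyp array 1 (adjusted p = 0.167 and 0.0727) or DRlyp/lyp array 2 (0.118 and 0.138), and that of Vdac1 without DR+/+ array 1 (0.0716).

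In a list of genes for mitochondrial biogenesis and the expression of mitochondrial DNA, 3 of 16 were higher and 4 lower, near the 20.9% and 21.1% of all genes; without the filter 1 was higher and 0 lower. Pprc1, a coactivator of the PGC-1 family, was higher at 562 and 754.2 in DRlyp/lyp, against 317.8 and 377.1 in DR+/+ (0.91, adjusted p = 0.000487), as was Gabpb1, the partner chain of the ETS factor GABPA, at 366.9 and 375.9 in DRlyp/lyp, against 197.6 and 245.1 in DR+/+ (0.76, adjusted p = 0.00154). Both lost their calls without the filter (adjusted p = 0.146 for Pprc1 and 0.104 for Gabpb1). Tufm, the mitochondrial elongation factor, was also higher (0.45, adjusted p = 0.00186), though not without the intensity trend (0.0529). Nrf1, the factor whose motif was searched above, read 227.7 and 213.5 in DRlyp/lyp, against 437 and 340.1 in DR+/+ and was lower (-0.81, adjusted p = 0.00126), but not with the mean of its sets (-0.20, adjusted p = 0.37). Ssbp1, which binds single-stranded mitochondrial DNA, was lower (-0.86, adjusted p = 0.00073), which averaging its sets ended (-0.32, adjusted p = 0.0557). Tsfm was lower (-0.55, adjusted p = 0.0276) and lost its call without DRlyp/lyp array 1 (adjusted p = 0.188), DRlyp/lyp array 2 (0.0928) or DR+/+ array 2 (0.103). The coactivators Ppargc1a and Ppargc1b failed the filter on all 4 arrays.

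**Figure D4:**
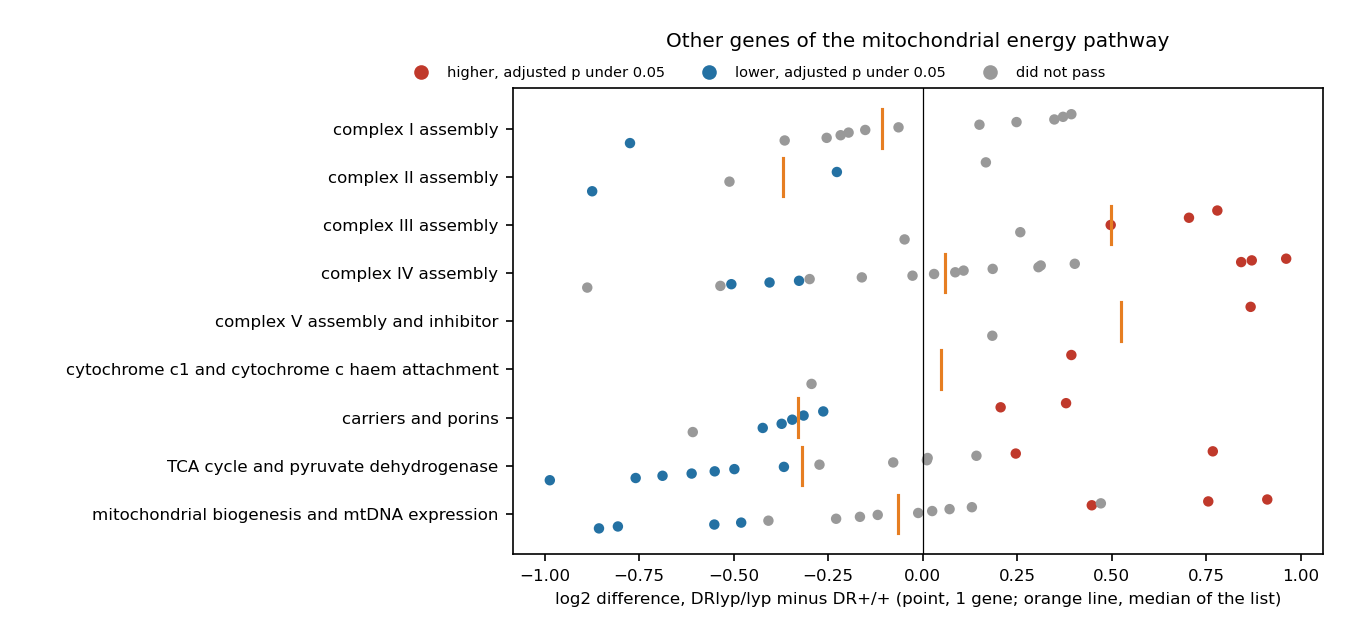
Log2 difference (DRlyp/lyp minus DR+/+) of each gene tested in 9 lists of mitochondrial energy genes other than the members; red points were higher, blue points lower and grey points did not pass at an adjusted p under 0.05, and the orange line is the median of a list. The median is -0.32 for the tricarboxylic acid cycle and -0.37 for complex II assembly, against 0.50 for complex III assembly.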

How the data were processed

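RNA of the AA4+ mast cell preparations, from 2 pools of 8 females each, was amplified in 2 cycles from about 50 ng. It was hybridised to Affymetrix Rat Genome 230 2.0 arrays, per the labels. The authors deposited 1 linear signal intensity per probe set and array; of the program and scaling behind it nothing is stated (not given in the sources used here). From these, 57 control sets were left out, values under 6.8 (the 25th percentile) were raised to it and log2 was taken. Probe sets above 28.3 (the median) on at least 2 of 4 arrays were tested, 16068 in all, with limma 3.58.1 in R 4.3.3 (lmFit, eBayes with an intensity trend) and Benjamini-Hochberg adjustment over all of them; the threshold was 0.05. A gene was read from its brightest probe set. Gene symbols are those of a 2016 platform annotation; 20826 sets had 1 symbol, 436 several and 9780 none. Differences are log2, DRlyp/lyp minus DR+/+. Precision is limited by the number of arrays, and p-values reflect only the spread between amplifications of a pool.

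Members and lists were chosen with earlier results of these data known. Full values are given for up to 8 called genes per complex with the largest differences; further genes were named after their values were seen. The alternatives were quantile normalization, median centring, other filters and floors, an offset, no trend, the mean of a gene's sets, the replicate number as a block and leaving out each array. The fit was tested on simulated data. Promoters were searched with Python 3.11.15 in the first RefSeq window listed for a gene.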

Additional observations from a re-analysis of the deposited data

How the results depend on the processing

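Of the alternatives run, dropping the filter and dropping limma's trend left the fewest members called. Without the filter, which adds dim sets to the test, 1671 probe sets, 11 higher and 3 lower members were called; without the intensity trend the counts were 4057, 17 and 7. With each array centred on its median, the complex medians were 0.087 (I), -0.69 (II), 0.28 (III), 0.11 (IV) and -0.008 (V). The stricter filter gave 0.17 for complex IV, the mean of a gene's sets -0.32 for complex II, and the other Sdhd set, an alternative chosen after seeing the data, -0.21. Leaving out each array gave 3478 to 5800 probe sets, 20 to 29 higher and 9 to 11 lower members, with the lone array of a group assumed to vary like the other group. The medians then ran from 0.095 to 0.23 (I), -0.63 to -0.51 (II), 0.26 to 0.52 (III), 0.24 to 0.38 (IV) and 0.028 to 0.13 (V). The cause of these shifts was not tested.

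Of the called members only Sdhd turned its sign, with its other set (0.26, adjusted p = 0.0462). Uncalled members that did so with median centring were Ndufa11 (-0.024), Ndufa3 (-0.081), Ndufab1 (-0.105), Uqcrc1 (-0.047) and Atp5mc3 (-0.024). With an array left out the ranges were -0.24 to 0.42 for Ndufa11, -0.15 to 0.22 for Ndufa3, -0.12 to 0.13 for Ndufab1, -0.009 to 0.138 for Uqcrc1, -0.138 to 0.038 for Ndufs1, -0.136 to 0.048 for Cox6a1, -0.089 to 0.088 for Ndufc2, -0.039 to 0.018 for Sdhb, -0.047 to 0.381 for Cox7b, -0.078 to 0.043 for Atp5mk, -0.11 to 0.013 for Ndufa9, -0.12 to 0.46 for Ndufs4, -0.11 to 0.35 for Atp5mg, -0.121 to 0.014 for Ndufb11 and -0.29 to 0.12 for Atp5if1.

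The arrays of the groups share replicate numbers, and the main fit did not use them. The deviations of replicate 1 from its pool's mean correlated between the pools at 0.044 over the probe sets tested. That value cannot tell whether the arrays were handled in pairs. With the replicate block 7044 probe sets, 32 higher and 13 lower members were called; no member lost its call, and Atp5f1a (adjusted p = 0.0465), Ndufb7 (0.0467) and Ndufv1 (0.0471) passed. The calls of 12 members were kept in every alternative: Atp5f1c, Atp5f1e, Atp5pb, Cox4i1, Cox7a2l, Ndufa12, Ndufa6, Ndufb2, Ndufb5, Ndufb9, Uqcrfs1 and Uqcrq. The sets of Cox5a and Cox6a2 were dim, and their differences rest on low signals. On the DR+/+ arrays Cox6a2 read 35 and 28.9, close to the filter of 28.3, and Cox5a 47 and 73.9.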
